A study of Homo sapiens with 32 samples.

Results

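CIITA and 9 genes of the MHC class II pathway were followed across RNA sequencing of 2 human diffuse large B-cell lymphoma lines. The 10 genes, CIITA, CD74, HLA-DRA, HLA-DMA, HLA-DMB, HLA-DOA, HLA-DOB, HLA-DPA1, HLA-DPB1 and HLA-DQB1, were taken by symbol from a table of 25066 features, and each matched a single row. The lines were TMD8, of the activated B cell (ABC) subtype, and DOHH2, of the germinal centre (GCB) subtype, and their cells received CSKi or the vehicle DMSO for 1, 3, 6 or 24 h. CSKi is an inhibitor of CSK, the kinase that phosphorylates the inhibitory tail tyrosine of Src family kinases, and was given at 500 nM. The groups were therefore TMD8 with CSKi, TMD8 with DMSO, DOHH2 with CSKi and DOHH2 with DMSO at each of the 4 times, with 2 libraries in each of 16 groups. Every group, the vehicle groups included, carried engineered Cas9, and the sources used here do not say whether either line is a single clone. The titles call the duplicates bio replicates without saying that they are separate cultures, so the p-values measure the spread between these libraries, which may be technical.

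MHC class II molecules present peptides from the endosomal pathway to CD4+ T cells, and B cells express them constitutively. CIITA is the class II transactivator: it binds no DNA itself and is recruited to a conserved promoter module, with boxes called S, X and Y, by the RFX complex, CREB and NF-Y. The alpha and beta chains pair in the endoplasmic reticulum with the invariant chain encoded by CD74, and HLA-DM then exchanges the remaining invariant chain fragment for peptide, a step that HLA-DO inhibits. In diffuse large B-cell lymphoma, loss of class II expression and lesions of CIITA are recurrent.

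The promoter windows printed here are those of the 6 class II pathway genes that differed between CSKi and DMSO in TMD8 at 6 or 24 h, shown because CIITA is known to act at such promoters; letters of both boxes were found in the windows of HLA-DMA and HLA-DOA, and of 1 box in the other 4. Each is read on the strand of its gene, 5′ to 3′, from 140 to 31 bases before a RefSeq start (GRCh38.p14, minus strand in every case). Capitals mark matches, on either strand, to X box letters (TNCCNAGNNACNGA) and to the core of the Y box (ATTGG). The X letters are those shared by the 14-base stretch most alike between the promoters of HLA-DMA, HLA-DMB, HLA-DOA, HLA-DPA1 and HLA-DQB1, with N where these differ, and the width of 14 was taken after 13 and 12 had been tried. HLA-DPA1 has 2 starts in the table and the window with a match is shown.
HLA-DMA, chr6:32953128-32953237: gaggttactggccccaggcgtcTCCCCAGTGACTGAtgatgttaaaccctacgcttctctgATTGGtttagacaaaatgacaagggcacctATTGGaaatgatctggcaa
HLA-DMB, chr6:32941059-32941168: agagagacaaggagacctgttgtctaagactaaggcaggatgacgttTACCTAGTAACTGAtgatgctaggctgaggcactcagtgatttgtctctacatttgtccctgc
HLA-DOA, chr6:33009622-33009731: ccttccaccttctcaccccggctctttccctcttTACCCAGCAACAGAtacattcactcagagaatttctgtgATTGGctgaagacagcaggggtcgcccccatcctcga
HLA-DPA1, chr6:33073680-33073789: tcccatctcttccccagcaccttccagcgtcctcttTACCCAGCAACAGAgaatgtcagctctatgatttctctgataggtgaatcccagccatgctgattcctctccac
HLA-DOB, chr6:32817033-32817142: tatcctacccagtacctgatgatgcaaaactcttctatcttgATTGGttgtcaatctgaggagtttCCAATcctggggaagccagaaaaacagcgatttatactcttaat
CD74, chr5:150412941-150413050: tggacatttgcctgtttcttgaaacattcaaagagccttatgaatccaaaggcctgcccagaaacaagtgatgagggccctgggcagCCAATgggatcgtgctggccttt
Of the 8 members with promoter entries, those 5 hold the X letters by construction, and 0.296% of all 35116 promoters in the table (300 bases each) hold them, against 1.3% at a width of 13 and 1.24% at 12. The short Y core is common: 7 of the 8 members held it, against 34.6% of all promoters. The X letters were followed by the Y core within 40 bases on the gene's strand in 3 of the 5 members they were taken from. Over all promoters this order occurred in 0.0114%, and in 0.037% and 0.0228% at widths of 13 and 12. The letters were made from these members, so nothing about them is read from those shares. The bases between them numbered 25 in HLA-DMA and HLA-DOA and 24 in HLA-DQB1. A match describes letters, not binding, and CIITA and HLA-DRA are named only. HLA-DOB and CD74 were not among the members that gave the X letters. A window without a match does not show that a box is absent.

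Libraries held 12273442 to 24907030 mapped reads. Values are log2 normalized counts, the deposited scale, on which a difference of 1 is a doubling. Over the libraries of each line the recovered reads of the members ran from 41905 to 83649 for CD74 in TMD8 down to 41 to 136 for HLA-DQB1 in TMD8, so HLA-DQB1 was the least precise member. All 8 markers of B cell identity exceeded 100 reads in every library. The summed T and NK cell markers gave 41 to 94 reads per library in TMD8 and 62 to 148 in DOHH2, and CD2 was at 0 in every library. The summed myeloid markers gave 937 to 1553 reads in TMD8, mostly CD68, and 127 to 263 in DOHH2. The DOHH2 libraries at 24 h stood apart: the SD of log2 differences over features was 0.398 between the CSKi duplicates and 0.371 between the DMSO duplicates. Across labels it was 0.278 between CSKi replicate 2 and DMSO replicate 1 and 0.318 between CSKi replicate 1 and DMSO replicate 2. Each of the 4 was thus nearer to a library of the other label than to its duplicate, and whether labels were crossed was not tested. The labels were kept as given, and the 4 are called by their labels. Most DOHH2 results from 1 to 6 h are also given without them.

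CIITA fell in TMD8 cells given CSKi at 3 and 6 h, and at 3 h it was the only member called. After 1 h the libraries read 11.31 and 11.47 with CSKi, against 11.33 and 11.46 with DMSO. After 3 h they read 10.55 and 10.52 with CSKi, against 11.20 and 11.04 with DMSO, and after 6 h 10.24 and 10.23 with CSKi, against 11.17 and 11.08 with DMSO. The treatments overlapped at 1 h and were apart at 3 and 6 h, with CSKi below DMSO. After 24 h the values were 11.69 and 11.40 with CSKi, against 11.44 and 11.43 with DMSO, and they overlapped again. The log2 difference was 0.00 ± 0.07 (SE) at 1 h, -0.59 ± 0.07 at 3 h (1.5-fold lower, limma adjusted p = 3.55e-06), -0.90 ± 0.07 at 6 h (1.86-fold lower, adjusted p = 1.3e-09) and 0.11 ± 0.07 at 24 h (adjusted p = 0.186). Without CSKi replicate 2 of 24 h, the 24 h difference was 0.25 with an adjusted p of 0.00205 (range over its 16 alternatives 0.00205 to 0.78). In bulk RNA, fewer cells expressing a transcript and less transcript per cell cannot be told apart.

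**Figure D1:**
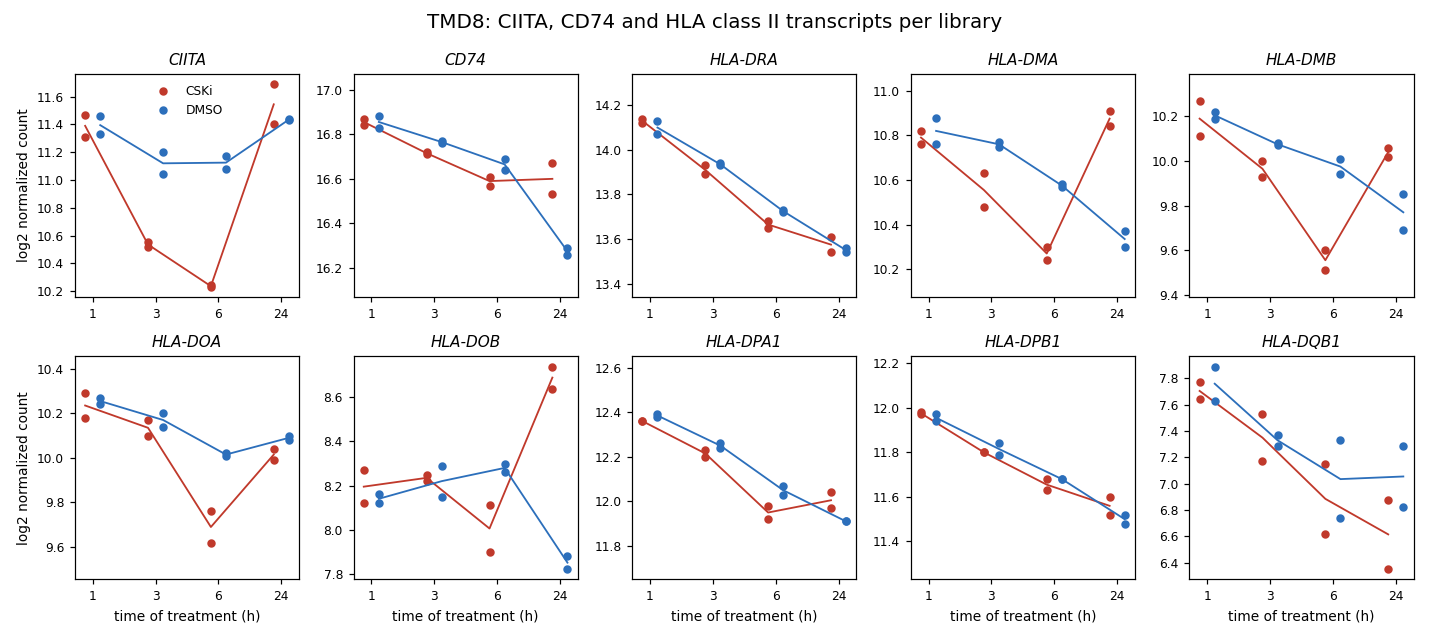
Log2 normalized count of each member in every TMD8 library, against time of treatment in h (times evenly spaced, a separate value axis per gene). Points are libraries, lines join the means of 2, red is CSKi and blue DMSO; the CIITA libraries with CSKi reach 10.24 and 10.23 at 6 h, below every DMSO library, and 9 of 10 members are lower in DMSO at 24 h than at 1 h.

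At 1 h limma called 0 of the 10 members in TMD8, with 0 at an unadjusted p under 0.05 and 0 by voom on recovered reads, where 0.05% of all 12000 features tested were called. At 3 h CIITA was called in a comparison that called 3.26% of all features lower. HLA-DMA, the alpha chain of the peptide exchanger HLA-DM, read 10.48 and 10.63 with CSKi and 10.75 and 10.77 with DMSO at 3 h. CSKi was below DMSO in these libraries, but the difference of -0.20 ± 0.06 had an adjusted p of 0.0524. It passed the threshold in 6 of 16 alternatives, of which leaving out CSKi replicate 2 of 3 h gave -0.28 (adjusted p = 0.0348, range over the alternatives 0.00982 to 0.478).

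At 6 h both chains of HLA-DM and the alpha chain of HLA-DO were also lower: 4 of 10 members were lower with CSKi, CIITA, HLA-DMB, HLA-DOA and HLA-DMA, where 6.98% of all features were called lower and 5.67% higher. HLA-DMB, the beta chain of HLA-DM, read 9.60 and 9.51 with CSKi and 9.94 and 10.01 with DMSO. It fell by 0.42 ± 0.07 (1.34-fold, adjusted p = 0.00013). HLA-DMA read 10.30 and 10.24 with CSKi and 10.57 and 10.58 with DMSO, lower by 1.23-fold (-0.30 ± 0.06, adjusted p = 0.000932). HLA-DOA, the alpha chain of the HLA-DM inhibitor HLA-DO, read 9.76 and 9.62 with CSKi and 10.01 and 10.02 with DMSO, lower by 1.25-fold (-0.32 ± 0.06, adjusted p = 0.000858). In all of these the CSKi libraries lay below the DMSO libraries.

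The other 6 members, the invariant chain CD74 and 4 surface chains among them, were not called at 6 h, although HLA-DRB1, the HLA-DR beta chain from the list of other class II genes, was lower. HLA-DRA, the alpha chain of HLA-DR, read 13.65 and 13.68 with CSKi and 13.73 and 13.72 with DMSO, a difference of -0.06 ± 0.03 (95% interval -0.13 to 0.01, adjusted p = 0.274). CD74 differed by -0.07 ± 0.03 (adjusted p = 0.169), HLA-DPA1 by -0.10 ± 0.04 (adjusted p = 0.106), HLA-DPB1 by -0.03 ± 0.04 and HLA-DQB1, with its few reads, by -0.15 ± 0.21. HLA-DOB, the beta chain of HLA-DO, read 7.90 and 8.11 with CSKi and 8.30 and 8.26 with DMSO (-0.27 ± 0.11, adjusted p = 0.117). All 10 differences were below 0, with a median of -0.212 over the members and 0.015 over all features tested. CD74 is called at 6 h by voom (-0.08, adjusted p = 0.038) and 3 other alternatives, within a range of 0.000734 to 0.598.

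At 24 h 5 of 10 members were higher with CSKi and 0 lower, in a comparison that called 27.9% of all features higher and 26.2% lower. HLA-DOB showed the greatest of these differences. It read 8.64 and 8.74 with CSKi, against 7.88 and 7.82 with DMSO (0.84 ± 0.11, 1.79-fold, adjusted p = 5.55e-07). HLA-DMA read 10.91 and 10.84 with CSKi and 10.37 and 10.30 with DMSO (0.54 ± 0.06, 1.46-fold, adjusted p = 3.63e-08), and HLA-DMB read 10.02 and 10.06 with CSKi and 9.85 and 9.69 with DMSO (0.27 ± 0.07, adjusted p = 0.00209). CD74 read 16.67 and 16.53 with CSKi and 16.29 and 16.26 with DMSO (0.33 ± 0.03, 1.25-fold, adjusted p = 1.39e-08), a difference of 0.14 under quantile normalization. In each of these 4 genes both CSKi libraries lay above both DMSO libraries. HLA-DPA1 was just past the threshold (0.09 ± 0.04, adjusted p = 0.0488) and lost its call in 10 of 16 alternatives. The call of HLA-DMB was lost without DMSO replicate 2 of 24 h (0.19, adjusted p = 0.0635, range over its alternatives 0.000539 to 0.0635).

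Members not called at 24 h were CIITA, HLA-DRA (0.03 ± 0.03), HLA-DPB1 (0.06 ± 0.04), HLA-DOA (-0.07 ± 0.06) and HLA-DQB1 (-0.44 ± 0.21, adjusted p = 0.0846). HLA-DQB1 read 6.88 and 6.35 with CSKi and 7.29 and 6.82 with DMSO, and the treatments overlapped. It was called lower in 4 of its 15 alternatives, with -0.61 under quantile normalization (adjusted p = 0.0219), -0.71 without CSKi replicate 1 of 24 h (0.0140) and -0.68 without DMSO replicate 2 (0.0340), and read -0.18 without CSKi replicate 2. Of the subunits of HLA-DO, HLA-DOB was thus higher at 24 h and HLA-DOA was not called, at 10.04 and 9.99 with CSKi against 10.10 and 10.08 with DMSO. The median over the members was 0.104, and 0.015 over all features. Some transcripts that mark other cells were higher with CSKi at the same time: CD68 by 0.50 ± 0.05, ITGAM by 0.74 ± 0.20 and CD4 by 1.13 ± 0.41. CD4 had 35 and 28 reads under CSKi and 19 and 17 under DMSO. In TMD8, 6 of 9 T and NK and 8 of 10 myeloid markers had at most 10 reads in every library. Over all times the summed T and NK reads overlapped, at 41 to 81 with CSKi and 49 to 94 with DMSO. So did the myeloid reads, at 1106 to 1393 and 937 to 1553. These sums pool all times and were not scaled for depth, so they cannot show whether such markers rose in general at 24 h. Of the 8 B cell identity genes, 7 were higher with CSKi, led by CD37 (0.96 ± 0.04) and CD79B (0.89 ± 0.04). The part of these shifts in the class II result was not tested.

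**Figure D2:**
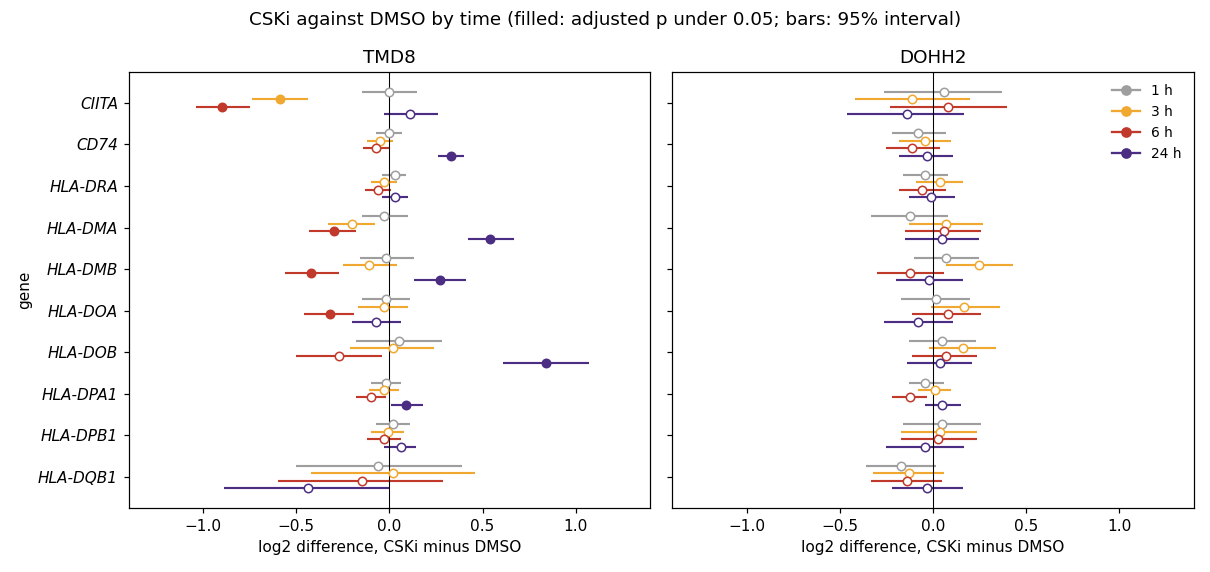
Log2 difference, CSKi minus DMSO, of each member at 1, 3, 6 and 24 h in TMD8 (left) and DOHH2 (right), with 95% intervals; filled points passed the adjusted threshold. In TMD8, CIITA lies at -0.59 and -0.90 at 3 and 6 h and near 0 at 24 h, while HLA-DOB reaches 0.84 at 24 h. No point is filled in DOHH2, where the test by label at 24 h cannot show a lack of response.

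The change of the response between 6 and 24 h was tested directly in TMD8. The 24 h response exceeded the 6 h response in 7 of 10 members, where 15.4% of all features did so. The log2 differences between the responses were 1.11 ± 0.16 for HLA-DOB, 1.01 ± 0.10 for CIITA, 0.84 ± 0.09 for HLA-DMA, 0.69 ± 0.10 for HLA-DMB and 0.40 ± 0.05 for CD74, with adjusted p from 4.09e-08 to 7.52e-06. HLA-DOA (0.25 ± 0.09, adjusted p = 0.0363) and HLA-DPA1 (0.19 ± 0.06, adjusted p = 0.0103) were smaller, and HLA-DOA lost its call in 10 of 20 alternatives. A test over all 4 times called the response in 7 of 10 members and in 39.4% of all features. It did not call HLA-DRA (adjusted p = 0.307), HLA-DPB1 or HLA-DQB1.

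In TMD8 given DMSO alone, all members but CIITA were lower at 24 h than at 1 h. The test over time called 10 of 10 members, where 58.4% of all features were called. Against 1 h, 4 members were lower at 3 h (9.68% of all features were lower), 9 at 6 h (12.4%) and 9 at 24 h (23.9%). The calls kept in every alternative were those of HLA-DRA at each time, of HLA-DPA1 and HLA-DPB1 at 6 h, and of CD74, HLA-DPA1, HLA-DPB1, HLA-DMA and HLA-DMB at 24 h. At 3 h HLA-DPA1 lost its call whichever of the 4 libraries was left out, and HLA-DPB1 with any but DMSO replicate 1 of 3 h. At 6 h HLA-DMB lost it with each of the 4, HLA-DMA and HLA-DOA without DMSO replicate 2 of 1 h, HLA-DOA also without replicate 2 of 6 h, and HLA-DQB1 without replicate 1 of 1 h (-0.59) or replicate 2 of 6 h (-0.43, against -0.72 with all). HLA-DRA read 14.13 and 14.07 at 1 h, 13.93 and 13.94 at 3 h, 13.73 and 13.72 at 6 h and 13.56 and 13.54 at 24 h. It was lower at each later time than at the one before, with no overlap, and stood at -0.55 ± 0.03 at 24 h against 1 h (1.47-fold, adjusted p = 1.89e-12). CD74 was lower by 1.5-fold at 24 h (-0.58 ± 0.03, adjusted p = 9.56e-13), HLA-DPA1 by 1.39-fold and HLA-DPB1 by 1.37-fold. At 6 h CD74 differed from 1 h by -0.19 ± 0.03, and by 0.00 under quantile normalization.

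The other members in TMD8 vehicle at 24 h against 1 h gave -0.48 ± 0.06 for HLA-DMA, -0.44 ± 0.07 for HLA-DMB, -0.70 ± 0.21 for HLA-DQB1, -0.30 ± 0.11 for HLA-DOB and -0.17 ± 0.06 for HLA-DOA. HLA-DOB and HLA-DOA lost their calls whichever of the 4 libraries was left out, and HLA-DQB1 without DMSO replicate 1 of 1 h (-0.57) or replicate 2 of 24 h (-0.47). CIITA alone was not called (0.04 ± 0.07, adjusted p = 0.68): it read 11.33 and 11.46 at 1 h, was lower at 3 h (-0.27 ± 0.07) and 6 h (-0.26 ± 0.07), and read 11.44 and 11.43 at 24 h. Both of those calls of CIITA were lost without DMSO replicate 2 of 1 h (-0.21 and -0.20), and each without replicate 2 of its own time (-0.19 and -0.22), besides 3 of 12 other settings. Among those settings was the replicate block within time, whose values across times depend on which replicate is numbered 1. The median over the members was -0.462, and -0.01 over all features. From 6 to 24 h, 7 members were lower (20.9% of all features) and CIITA was higher (20.6% of all features were higher), at 0.30 ± 0.07 (adjusted p = 0.00142). Among the 7, HLA-DMB (-0.21) lost its call without DMSO replicate 2 of 6 h (-0.17) or of 24 h (-0.13), and HLA-DPA1 without replicate 2 of 6 h. The 24 h differences from DMSO are thus set against vehicle libraries in which 7 members were lower than at 6 h: CD74 with CSKi was at 16.61 and 16.57 at 6 h and at 16.67 and 16.53 at 24 h.

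**Figure D3:**
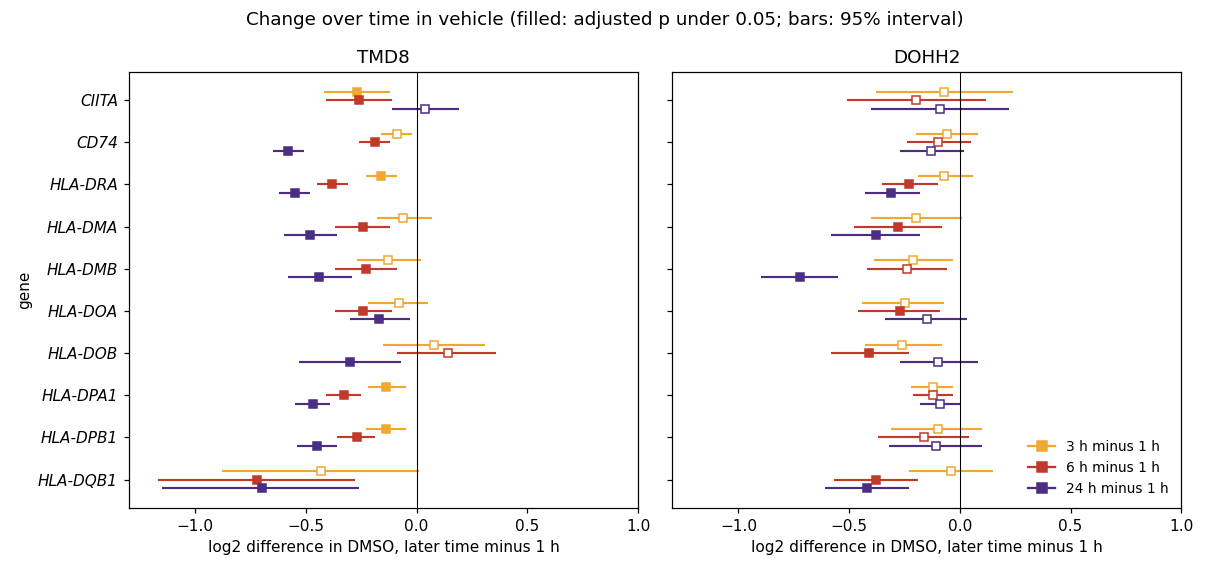
Log2 difference in DMSO between a later time and 1 h, for each member in TMD8 (left) and DOHH2 (right), with 95% intervals; filled squares passed the adjusted threshold. In TMD8, HLA-DRA and CD74 reach -0.55 and -0.58 at 24 h while CIITA is at 0.04.

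Within the CSKi arm of TMD8, all 10 members changed over time (68.8% of all features were called). At 24 h against 6 h, 5 members were higher (23.4% of all features were) and HLA-DRA was lower (25.4%), by 0.09 on the log2 scale. That call of HLA-DRA was lost in 4 of 12 settings and without either CSKi library of 6 h or CSKi replicate 1 of 24 h (-0.05). CIITA rose by 1.31 ± 0.07, or 2.48-fold (adjusted p = 1.27e-13), HLA-DOB by 0.68 ± 0.11, HLA-DMA by 0.61 ± 0.06, HLA-DMB by 0.48 ± 0.07 and HLA-DOA by 0.33 ± 0.06. CD74 differed by 0.01 ± 0.03, and by -0.23 under quantile normalization (adjusted p = 3.7e-07).

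DOHH2 gave 0 of 10 members called by limma at each of the 4 times. At 24 h the test by label cannot show a lack of response. Each library there was nearer to a library of the other label than to its duplicate. All features called were 0.375% at 1 h, 2.62% at 3 h, 0.883% at 6 h and 0% at 24 h, and voom also called 0 members each time. An unadjusted p under 0.05 was reached by 0 members at 1 and 24 h and by 1 at 3 and 6 h. CIITA read 12.36 and 12.40 with CSKi and 12.31 and 12.33 with DMSO at 1 h, and 12.11 and 12.17 with CSKi and 12.28 and 12.22 with DMSO at 3 h, where CSKi lay below DMSO (-0.11 ± 0.15, adjusted p = 0.816). It read 12.17 and 12.25 with CSKi and 12.06 and 12.19 with DMSO at 6 h, where the treatments overlapped. The 6 h difference was 0.08 ± 0.15, and its 95% interval of -0.23 to 0.40 does not reach the -0.90 of TMD8. At 24 h the libraries labelled CSKi read 11.82 and 12.36, and those labelled DMSO 12.47 and 12.00. The change of the response over time was called in 0 members by limma and 0 by voom, with 1 at an unadjusted p under 0.05 (0.2% of all features were called).

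The spread of the DOHH2 24 h libraries entered these errors. Without them, 0 members were called at 1 h (2.03% of all features), 2 at 3 h (14.6%) and 2 at 6 h (13.6%). HLA-DMB read 11.78 and 11.85 with CSKi and 11.56 and 11.58 with DMSO at 3 h, higher with CSKi by 0.25 ± 0.05 (adjusted p = 0.000415). HLA-DOA read 11.32 and 11.35 with CSKi and 11.16 and 11.15 with DMSO, higher by 0.17 ± 0.04 (adjusted p = 0.00727). In TMD8 neither was higher at 3 h. At 6 h CD74 (-0.11 ± 0.04, adjusted p = 0.0418) and HLA-DPA1 (-0.12 ± 0.04, adjusted p = 0.0284) were lower with CSKi in DOHH2, and CIITA was not called (0.08 ± 0.04, adjusted p = 0.226).

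**Figure D4:**
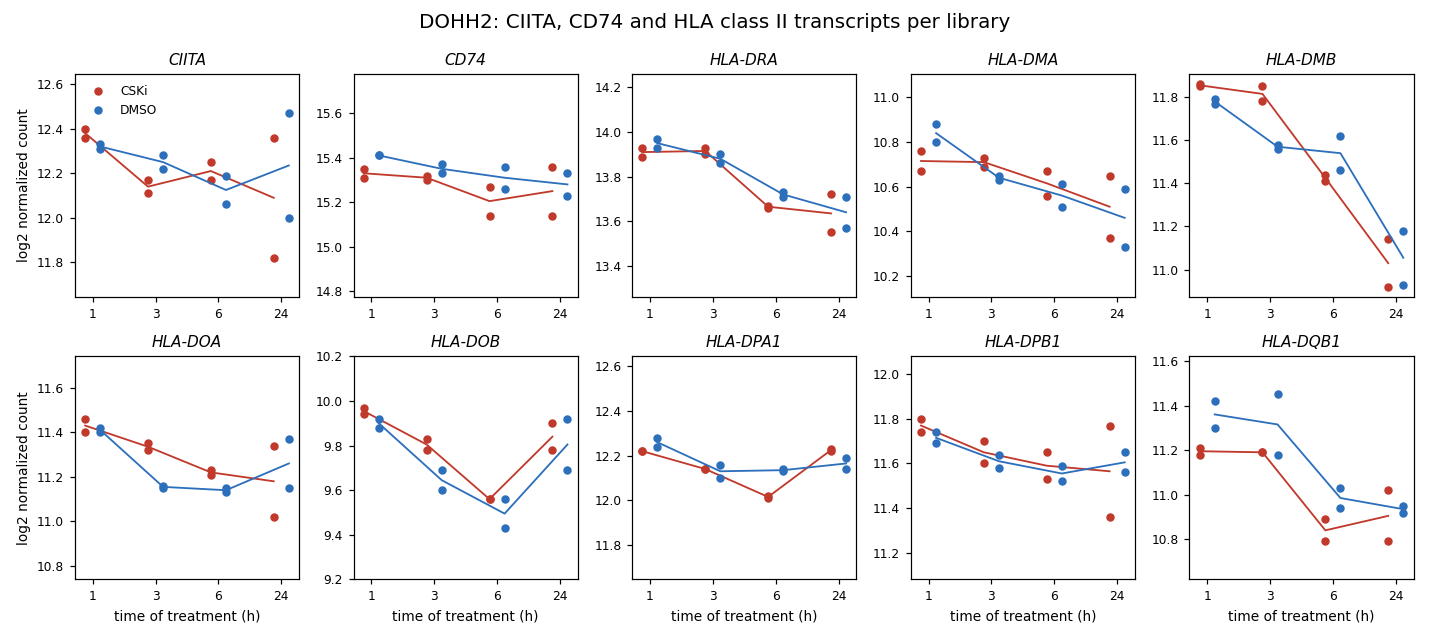
Log2 normalized count of each member in every DOHH2 library, against time in h (evenly spaced, a separate value axis per gene). Points are libraries, lines join the means of 2, red is CSKi and blue DMSO; the 24 h duplicates are the widest for CIITA, at 11.82 and 12.36 for CSKi and 12.47 and 12.00 for DMSO.

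In DOHH2 vehicle 5 members were lower at 6 h and 4 at 24 h than at 1 h. Over time, 5 members were called (29.3% of all features), and 9 without the 24 h libraries (52.8%). At 3 h against 1 h limma called 0, with 4 at an unadjusted p under 0.05 and all 4 lower (13.9% of all features were called). At 6 h the 5 were called where 10.3% of all features were lower, with log2 differences of -0.41 ± 0.08 for HLA-DOB, -0.38 ± 0.09 for HLA-DQB1, -0.28 ± 0.09 for HLA-DMA, -0.27 ± 0.09 for HLA-DOA and -0.23 ± 0.06 for HLA-DRA. HLA-DMA (adjusted p = 0.0485), HLA-DOA and HLA-DRA lost their calls whichever of the 4 libraries was left out, and in 7, 4 and 2 of 14 other settings. HLA-DOB lost it without DMSO replicate 2 of 6 h, and HLA-DQB1 without replicate 2 of 1 h or replicate 1 of 6 h. Without the 24 h libraries all 10 were lower at 6 h, where 43.6% of all features were called in either direction. In that fit 5 were lower at 3 h, where 33.8% of all features were called in either direction. At 24 h the 4 (6.02% of all features were lower) were HLA-DMB, HLA-DQB1 (-0.42 ± 0.09), HLA-DMA (-0.38 ± 0.09) and HLA-DRA (-0.31 ± 0.06), of which HLA-DMB read 11.77 and 11.79 at 1 h and 11.18 and 10.93 at 24 h (-0.72 ± 0.08, adjusted p = 0.000123). HLA-DRA and HLA-DQB1 lost their 24 h calls without DMSO replicate 2 of 1 h, and HLA-DMA without either library of 1 h or replicate 2 of 24 h (-0.25). CIITA, CD74, HLA-DOA, HLA-DOB, HLA-DPA1 and HLA-DPB1 were not called at 24 h, with differences of -0.15 to -0.09. At 24 h against 6 h HLA-DMB was lower (-0.48 ± 0.08, 2.4% of all features were lower) and HLA-DOB higher (0.31 ± 0.08, adjusted p = 0.0435, 3.35% higher). HLA-DOB lost that call in 7 of 13 settings and without either library of 6 h or DMSO replicate 2 of 24 h (0.19), and HLA-DMB without replicate 2 of 6 h (-0.40). Within the CSKi arm 5 members changed over time (38.8% of all features), and 9 without the 24 h libraries (55.8%).

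The difference between the lines' responses was tested in a fit of all 32 libraries. It called 0 members at 1 h (0.142% of all features, 0 at an unadjusted p under 0.05, 0 by voom) and 0 at 3 h (1.26%, 3 at an unadjusted p under 0.05, all lower in TMD8, and 0 by voom). At 6 h the response of 2 members was lower in TMD8 than in DOHH2, where 1.15% of all features were. The difference was -0.98 ± 0.18 for CIITA (adjusted p = 0.00331) and -0.40 ± 0.11 for HLA-DOA (adjusted p = 0.0474). Without the DOHH2 24 h libraries 4 were called at 6 h, CIITA, HLA-DOA, HLA-DMA (-0.36) and HLA-DMB (-0.30), and 2 at 3 h, CIITA (-0.48) and HLA-DMB (-0.36). The share of all features in that fit is not given here, so these counts are not read as a result about the members. In DOHH2 alone, the share called without these libraries rose from 2.62% to 14.6% at 3 h and from 0.883% to 13.6% at 6 h. The call of CIITA at 6 h was kept in every alternative run. That of HLA-DOA was lost in 12 of 21.

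At 24 h the response of 4 members was higher in TMD8 than in DOHH2, where 16.2% of all features were: HLA-DOB by 0.80 ± 0.12 (adjusted p = 4.14e-05), HLA-DMA by 0.49 ± 0.12, CD74 by 0.36 ± 0.08 and HLA-DMB by 0.29 ± 0.11. These values rest on the DOHH2 24 h libraries and have no counterpart without them. Each of those libraries was nearer to a library of the other label than to its duplicate, so the size of these differences is uncertain. The call of HLA-DMB was lost in 13 of 20 alternatives, and those of HLA-DMA and CD74 were lost where only the groups compared were fitted.

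In vehicle, averaged over the times, CD74 was 2.47-fold higher in TMD8 than in DOHH2 (1.30 ± 0.03, adjusted p = 2.72e-22) and HLA-DPB1 1.08-fold higher, the 2 members called that way (42.6% of all features). Lower in TMD8 were 5 members (46.5% of all features). These were HLA-DQB1 (-3.85 ± 0.10, 14.5-fold), HLA-DOB (-1.59 ± 0.04), HLA-DMB (-1.48 ± 0.04), HLA-DOA (-1.11 ± 0.04) and CIITA (-0.96 ± 0.06, 1.95-fold). HLA-DRA (0.03 ± 0.02), HLA-DPA1 (-0.03 ± 0.02) and HLA-DMA (0.00 ± 0.04) were not called. Without the DOHH2 24 h libraries, each line was averaged without 24 h, TMD8 included, and 9 members were called. HLA-DRA (0.07, adjusted p = 0.000312) and HLA-DPA1 (0.05, adjusted p = 0.0135) were then higher in TMD8, and HLA-DMA (0.04, adjusted p = 0.315) was not called. In TMD8 vehicle, 24 h gave the lowest mean of HLA-DRA (13.55) and of HLA-DPA1 (11.91). The shifts of these genes therefore do not rest on the DOHH2 libraries alone. The share of all features called in that fit is not given here. HLA alleles differ between lines and align unequally to 1 reference, and related HLA genes share reads, so the size of a line difference, HLA-DQB1 above all, is uncertain.

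Neighbours of the members in the pathway were followed from lists (the plot of gene lists in TMD8). Other class II locus genes were lower with CSKi at 6 h in 2 of 5 tested, HLA-DRB1 (-0.23 ± 0.05, adjusted p = 0.00276), the beta chain of HLA-DR, and HLA-DQA2 (-0.22 ± 0.07). At 24 h only HLA-DRB5 was called (-0.20 ± 0.05, lower). Of the 7 factors that bind the X and Y boxes, limma called 0 at 6 h, with differences of -0.10 to 0.07. At 24 h RFX5 (0.23 ± 0.04) and RFXANK (0.22 ± 0.06), subunits of the RFX complex, were higher and NFYB (-0.26 ± 0.08), a subunit of NF-Y, lower.

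Among 22 genes known to act on CIITA transcription, 2 were higher and 5 lower at 6 h in TMD8, where 5.67% of all features were higher and 6.98% lower. IRF4, a B cell and plasma cell factor, was at -0.17 ± 0.03, PRDM1, a repressor of CIITA, at -0.27 ± 0.05, the interferon gamma receptor chain IFNGR1 at -0.45 ± 0.09 and the kinase JAK1 at -0.16 ± 0.04. PRDM1 (-0.33 ± 0.05) and IFNGR1 (-0.43 ± 0.09) were also lower at 3 h. At 24 h 11 were higher and 6 lower, where 27.9% of all features were higher and 26.2% lower; these shares apply to each list at those times. IRF8, a factor of the germinal centre B cell, was higher (0.78 ± 0.05, adjusted p = 1.75e-12), as was IFNGR2 (0.40 ± 0.05), and IRF4 (-0.52 ± 0.03) and the methyltransferase EZH2 (-0.48 ± 0.04) were lower.

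Of 13 genes tested for antigen processing, 5 were higher and 1 lower at 6 h. The higher ones included the proteases CTSS (0.25 ± 0.05), which cleaves the invariant chain, CTSB (0.22 ± 0.04) and CTSZ (0.17 ± 0.04), and the lower one was IFI30 (-0.15 ± 0.04), a reductase of disulfide bonds in antigens. At 24 h CTSS (0.46 ± 0.05) and CTSB (0.41 ± 0.04) were among 5 higher and CTSH (-0.52 ± 0.05) and IFI30 (-0.41 ± 0.04) were lower. Of 12 genes of class II turnover and co-stimulation, 2 were higher and 4 lower at 6 h. CD83, which stabilises class II at the surface, was lower (-1.20 ± 0.05, adjusted p = 2.29e-14), as were CD1C, a lipid-presenting molecule (-1.07 ± 0.11), and ICOSLG, a T cell co-stimulator (-0.76 ± 0.18), and CD86 was higher (0.30 ± 0.05). CD83 (-0.65 ± 0.05) and CD1C (-0.93 ± 0.11) were also lower at 24 h, while ICOSLG was higher (0.94 ± 0.18).

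**Figure D5:**
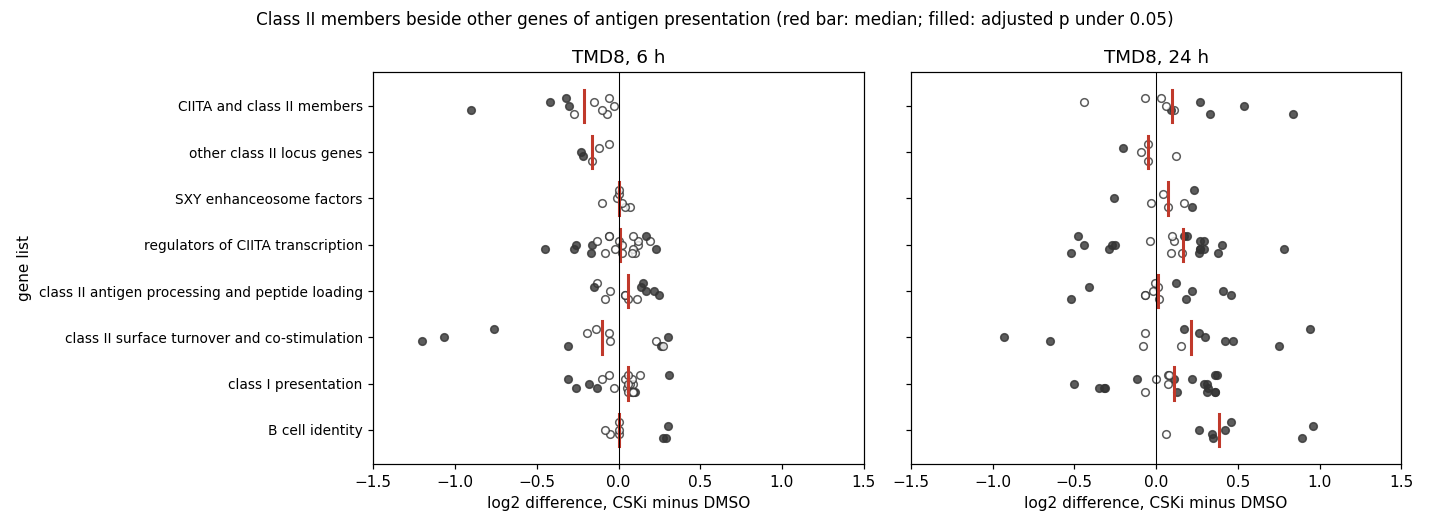
Log2 difference, CSKi minus DMSO, in TMD8 at 6 h (left) and 24 h (right) for the members and for 7 lists of neighbouring genes. Each point is a gene, filled if it passed the adjusted threshold, and the red bar is the list's median; at 6 h every member lies below 0, with a median of -0.212.

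Across the 16 TMD8 libraries the features most like CIITA by Pearson's r of log2 values were PTPRCAP (0.98), TTYH3 (0.97), PYCARD (0.96), HVCN1 (0.96) and ZNRF2 (0.96). The members' own r with CIITA was 0.62 for HLA-DMA, HLA-DMB and HLA-DOA, 0.27 for HLA-DOB, 0.06 for HLA-DRA and 0.01 for CD74. The features most like HLA-DMB were SIGLEC6 (0.95), HLA-E (0.95), SGK269 (0.92), EHD4 (0.92) and PTK2B (0.91), and its r with HLA-DMA was 0.90. These are descriptions: the libraries share treatment, time and line.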

How the data were processed

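Per the labels, TruSeq stranded mRNA libraries (paired 75-base reads) were made from RNA of cells grown in advanced RPMI with 5% FBS. Per the submitters' processing notes, hg19 was the build and HTSeq a tool used; for its version, the strand mode, the aligner and the scaling step, the sources used here give nothing. As its values show, the deposited table holds log2 of read counts times 1 factor per library (0 for no read). Undoing the factor recovered whole reads, to within 0.1 reads up to 300 reads, for 99.4 to 100% of values. The row of total mapped reads entered no test, and 0 sample columns were left unmapped.

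A group-means model of these deposited log2 values was fitted with limma 3.58.1 (R 4.3.3; eBayes with trend=TRUE; two-sided tests) over the 12000 features with the highest mean, with Benjamini-Hochberg adjustment over all of them and calls at adjusted p under 0.05. All 10 members passed this filter in each fit. A fit held 16 libraries, those of a single line (residual degrees of freedom 8, lowest mean 20.6 reads in TMD8 and 14.5 in DOHH2) or all 32 (16 degrees of freedom, 15.3 reads). The step was tested on simulated data in which few features changed, in a single group and at a single dispersion. That setting does not cover comparisons with many called features, such as TMD8 at 24 h, or the spread of the DOHH2 24 h duplicates. Replicate numbers were not used as pairs in these fits. Correlations of deviations between CSKi and DMSO were -0.01 to 0.17 in TMD8, with 0.17 at 24 h, and 0.03 to 0.05 in DOHH2 from 1 to 6 h. In DOHH2 at 24 h the correlation was -0.48, so deviations there went opposite ways by replicate number.

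Members and lists were chosen with earlier results of these data known. All members are described, with up to 4 genes per list by smallest p, and the 5 features most like CIITA and HLA-DMB. A gene that this rule named is not reported here. Rows matched by gene ID stand under the table's own symbols. Alternatives were other filters, scalings, variance models, library sets, voom and a replicate block, and leaving out each library. Promoters are from RefSeq (GRCh38.p14). Tables and figures used pandas 2.3.3 and matplotlib 3.10.9 in Python 3.11.15.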

Additional observations from a re-analysis of the deposited data

Results flagged for a closer look

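Within TMD8 the response to CSKi was higher at 24 than at 6 h, by a direct test, in 7 members and in 15.4% of all features. The 24 h minus 6 h differences were 1.11 for HLA-DOB, 1.01 for CIITA, 0.84 for HLA-DMA, 0.69 for HLA-DMB, 0.40 for CD74, 0.25 for HLA-DOA and 0.19 for HLA-DPA1. Between the lines, TMD8 minus DOHH2, the response at 6 h differed by -0.98 for CIITA and -0.40 for HLA-DOA (1.15% of all features were lower). At 24 h it differed by 0.80 for HLA-DOB, 0.49 for HLA-DMA, 0.36 for CD74 and 0.29 for HLA-DMB (16.2% of all features were higher). The DOHH2 duplicates at 24 h were the least alike of all groups. HLA-DOA lost its call in 10 of 20 alternatives between the times and in 12 of 21 between the lines. HLA-DMB lost its 24 h call between the lines in 13 of 20.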

How the results depend on the processing

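Counts of members called moved over 1.5 times as follows. CSKi against DMSO in TMD8 at 3 h gave 2 with 8000 features, median of ratios scaling, a robust variance model or a replicate block within time, 3 with only the groups compared, and 1 to 2 when a library was left out (2 without CSKi 3 h replicate 2 or either CSKi 24 h library). In DOHH2 it gave 2 at 3 h with only the groups compared or without the 24 h libraries, 0 to 1 with a library left out (1 without either CSKi 24 h library), and at 6 h 1 with all 32 libraries and 2 without those of 24 h; its response over time gave 1 without them. DOHH2 vehicle over time gave 9 without the 24 h libraries, 0 with the block within time and 3 to 6 with a library left out (3 without DMSO 6 h replicate 2). The DOHH2 CSKi arm gave 9, 1 and 4 to 10 (10 without CSKi 24 h replicate 2). The line difference at 3 h gave 2 with only the groups compared or without the DOHH2 24 h libraries. At 6 h it gave 1 with 16000 features, no filter or either replicate block, 4 without the DOHH2 24 h libraries, and 1 to 3 with a library left out (1 in 24 of 32 cases); at 24 h it gave 1 with only the groups compared. With the DOHH2 24 h pairing crossed in the block within time, 2 were called in DOHH2 at 3 h, 1 over time and 3 in the line difference at 3 h. A simple replicate block moved no other count past 1.5 times, with 4 called in TMD8 at 6 h as before. The block within time also called HLA-DMA (adjusted p = 0.00982) at 3 h and HLA-DQB1 (0.0168) at 24 h in TMD8. It reads each group at its replicate 1 level, so changes over time within an arm depend on which library is numbered 1. CIITA in TMD8 vehicle against 1 h thus read -0.15 at 3 h and 0.19 at 24 h, against -0.27 and 0.04 in the main fit. The counts over time with this block in DOHH2 vehicle and the DOHH2 CSKi arm are not read as results. Signs turned for CD74 in the TMD8 CSKi arm at 24 h against 6 h under quantile normalization (-0.23). They also turned for HLA-DPA1 between lines in vehicle, without the DOHH2 24 h libraries and with each line averaged over 1, 3 and 6 h (0.05). CIITA in the DOHH2 CSKi arm at 24 h against 6 h read 0.19 with the crossed pairing, against -0.12 in the main fit. That pairing reads the CSKi group of 24 h at its replicate 2 level, so this turn is the construction. Where fewer libraries or features entered, or the block within time was read across times, that is the construction. Otherwise the cause was not tested. Alternatives on the DOHH2 24 h libraries, and voom and other scalings of the 32-library fits, were chosen after seeing the data. No scaling moved the median of all features by over 0.1. HLA-DQB1 in TMD8, at 41 to 136 reads, is limited by depth.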

Other observations

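Class I presentation was also followed in TMD8. At 6 h, where 5.67% of all features were higher and 6.98% lower, 2 of 21 genes were higher with CSKi and 4 lower: the chaperones CALR (-0.26 ± 0.03), CANX (-0.18 ± 0.03) and PDIA3 (-0.13 ± 0.04), and HLA-E (-0.31 ± 0.04), a class I molecule read by NK cells. At 24 h 11 were higher and 5 lower, where 27.9% of all features were higher and 26.2% lower. HLA-B was higher (0.32 ± 0.03), and CANX (-0.50 ± 0.03), CALR (-0.35 ± 0.03) and PDIA3 (-0.31 ± 0.04) were lower.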
